A study of Mus musculus with 2 samples.

Results

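The sodium pump (Na,K-ATPase) and its FXYD partners were examined in single-cell RNA sequencing of the testis by the rows of 6 genes, taken by name from the 36547 genes of the deposited matrices. The 6 genes were Atp1a4, Atp1b1, Atp1b2, Atp1b3, Fxyd1 and Fxyd2. Fxyd2 was chosen for its drop in germ cells of the knockout library, so its values in that contrast are a description. Both libraries came from testes of C57BL/6 mice that were 12 weeks old. One library was wild type (WT) and the other was homozygous null for Alkbh5 (Alkbh5-/-, KO), a gene for an RNA demethylase that removes N6-methyladenosine (m6A). The question was how the pump subunits were distributed over germ cell stages and somatic cells, and how their levels differed between the genotypes. With 1 library per genotype there was no test of genotype. All intervals are 95% intervals that cover counting error only. The study's text describes both a single mouse and testes of several mice per genotype, so a library may pool animals.

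The sodium pump moves sodium out of the cell and potassium in at the cost of ATP. A catalytic alpha subunit does the transport, a beta subunit brings the alpha subunit to the membrane, and small FXYD proteins tune the pump's affinity for its ions. Atp1a4 encodes the alpha4 isoform, which is known from male germ cells and is needed for sperm motility. Atp1b1, Atp1b2 and Atp1b3 encode the beta subunits, Fxyd1 encodes phospholemman and Fxyd2 the gamma subunit of the kidney pump.

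WT held 5756 cell barcodes with 80283221 transcript counts, as unique molecular identifiers (UMIs). KO held 7012 barcodes with 82056760 UMIs. The median per cell was 10905.5 (WT) and 9117.5 (KO) UMIs, and 45 barcode sequences occurred in both libraries. Of these 45, 2 fell in the same cluster. Clustering gave 17 clusters, named by markers as cells like a known type; 13 were germ cell clusters in 7 classes, from spermatogonia to elongating and condensing spermatids, which the study calls sperm. Each cluster had at least 9 of the markers of its class detected, but the 4 clusters of early-stage and mid-stage round spermatids had none of them among their 10 leading genes. Of the 12 Sertoli markers, Amh was at 0 in the WT Sertoli-like cells. In WT, 97.1% of cells were germ cells, against 75.1% in KO. Alkbh5 was counted 607 times in WT and 5 times in KO, in the direction of the labels. Levels are given as counts per 1e+06 UMIs (CPM), summed over the cells of a cluster or class in each library. Where markers of another cell type moved with a gene, their level stands beside its values.

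By GENCODE on GRCm38, Fxyd2 lies on the plus strand at chr9:45399669-45410278, with Fxyd6 as its nearest coding neighbour 3510 bases away. Atp1b3 is on the same chromosome, at chr9:96332655-96364442 on the minus strand. Atp1a4 is at chr1:172223513-172258414 and Atp1b1 at chr1:164437109-164458355, both on the minus strand. Atp1b2 is at chr11:69599736-69605942 and Fxyd1 at chr7:31051678-31057199, also on the minus strand. Fxyd1 lies 211 bases from Fxyd7. Atp1b1 overlaps Nme7 and Atp1a4 overlaps the antisense gene Gm37950, each on the opposite strand. Whether the counting used strand is not given in the sources used here, so reads of these pairs could not be told apart.

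The coding sequence of Fxyd2 is shown because it is the gene with the largest fall among the 6 in KO germ cells and Alkbh5 acts on m6A, which sits in a context that often reads GGAC. In transcript Fxyd2-201 it has 192 bases in 5 coding exons without the stop codon, and capitals mark GGAC, searched on the coding strand only.
Fxyd2 coding sequence: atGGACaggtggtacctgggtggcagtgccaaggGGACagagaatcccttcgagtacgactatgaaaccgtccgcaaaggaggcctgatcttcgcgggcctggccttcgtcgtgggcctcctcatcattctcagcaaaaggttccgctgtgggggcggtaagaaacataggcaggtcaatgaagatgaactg
GGAC occurred 2 times. Of 21861 mouse coding sequences at least as long, 63.3% held GGAC in their first 192 bases and 27.1% held it at least 2 times. A match is a description of the letters and no measurement of m6A.

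The promoters of Atp1a4 and Atp1b3 are shown because both genes had their highest germ cell levels in spermatids and sperm-like cells. They are RefSeq windows on GRCm38.p6 from 250 bases before to 50 after the start site, minus strand, with 32851 such windows in all. Both strands were searched for TGACGTCA (the cyclic AMP response element, CRE), its core TGACG, the nuclear receptor core AGGTCA and the GC box GGGCGG, and capitals mark the matches. TGACG lies within TGACGTCA.
Atp1a4, chr1:172258375-172258674: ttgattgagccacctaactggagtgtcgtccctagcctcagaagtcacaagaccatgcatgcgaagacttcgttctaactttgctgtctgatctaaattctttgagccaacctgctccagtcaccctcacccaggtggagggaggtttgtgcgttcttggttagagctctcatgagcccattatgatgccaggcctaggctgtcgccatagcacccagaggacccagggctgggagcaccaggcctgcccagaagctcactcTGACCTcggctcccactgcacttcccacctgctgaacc
Atp1b3, chr9:96364382-96364681: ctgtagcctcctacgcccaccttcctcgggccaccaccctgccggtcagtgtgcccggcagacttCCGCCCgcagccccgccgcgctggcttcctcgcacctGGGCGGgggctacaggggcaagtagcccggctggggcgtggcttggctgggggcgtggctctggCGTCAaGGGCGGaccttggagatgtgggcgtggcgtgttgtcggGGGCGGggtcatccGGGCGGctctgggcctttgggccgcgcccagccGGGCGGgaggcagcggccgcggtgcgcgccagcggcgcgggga
Neither window held TGACGTCA, which 1.79% of all windows held. The Atp1a4 window held AGGTCA once, reversed, 12 bases after the start site, as did 16.3% of windows at any place. The Atp1b3 window held GGGCGG 6 times, a motif in 35.7% of windows, and TGACG once, which 20.8% of windows held. GC content was 55.7% for Atp1a4 and 76% for Atp1b3. A second RefSeq window of Atp1b3, with its start site at chr9:96363715, is not shown. It held TGACG once and no GGGCGG.

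Atp1a4 climbed steeply after meiosis, and from the mid-stage round spermatids on its level was close in the 2 libraries. In WT it was 38.6 CPM in spermatogonia-like cells and 14.2 in early spermatocyte-like cells. It was 4.96 CPM and 3.73 CPM in the late spermatocyte-like clusters led by Piwil1 and Pabpc6. From there it went to 16.3 and 69 CPM in the early-stage round spermatid-like clusters, and to 149 and 210 CPM in the mid-stage ones. Late-stage round spermatid-like cells had 339 CPM and the 4 sperm-like clusters had 318 to 391 CPM. The highest of these, 391 CPM, was in the cluster led by Prss58, the first after the round spermatids.

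In KO, Atp1a4 went from 27.4 CPM in spermatogonia-like cells and 2.29 CPM in the Pabpc6 late spermatocyte-like cluster to 347 CPM in late-stage round spermatid-like cells. The 4 KO sperm-like clusters had 361 to 375 CPM, so their levels were within counting error of each other. Between the Pabpc6 cluster and late-stage round spermatid-like cells the level grew 91.1-fold in WT (63.6 to 135) and 151-fold in KO (88.3 to 285). The intervals of these 2 folds overlapped.

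The KO/WT ratio of Atp1a4 on the log2 scale was 0.03 (-0.04 to 0.10) in mid-stage and 0.03 (-0.07 to 0.13) in late-stage round spermatid-like cells. In sperm-like cells it was 0.07 (0.02 to 0.12). Earlier, it was -0.67 (-1.37 to 0.01) in late spermatocyte-like cells, at 4.21 CPM in WT (56 UMIs) and 2.66 CPM in KO (29 UMIs), and -0.50 (-0.90 to -0.08) in spermatogonia-like cells. In the spermatogonia-like cells the summed sperm markers stood at 10.9% of their level in sperm-like cells in WT and 6.38% in KO, and Atp1a4 at 10.9% and 7.33% of its own, and the part of sperm RNA in this difference was not tested. With called doublets removed the ratio was -1.30. In the pooled germ cells the ratio was -0.28 (-0.32 to -0.24), and 0.05 with each germ cell cluster given equal weight. Of the germ cell UMIs, sperm-like cells gave 32.4% in WT and 20.5% in KO.

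Atp1b3 rose through the round spermatids and on through the sperm-like clusters, with its highest germ cell level in the last of them, and was lower in KO in most germ cell clusters. Over the same 4 sperm-like clusters Atp1a4 went down in WT and stayed level in KO. In WT it was 215 CPM in spermatogonia-like and 263 CPM in early spermatocyte-like cells. It was at its lowest, 39 CPM, in the Pabpc6 late spermatocyte-like cluster. The round spermatid-like clusters then had 54.9, 128, 256, 329 and 395 CPM in order of stage. The sperm-like clusters led by Prss58, Tnp2, Klk1b8 and Spem1 had 466, 552, 649 and 1151 CPM. No 2 of these 4 intervals overlapped.

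In KO, Atp1b3 was 159 CPM in spermatogonia-like and 269 CPM in early spermatocyte-like cells, and 28.4 CPM in the Pabpc6 cluster. The round spermatid-like clusters had 40.3, 76.7, 156, 251 and 280 CPM and the sperm-like ones 295, 346, 439 and 829 CPM. From the Pabpc6 cluster to the last sperm-like cluster, led by Spem1, the level grew 29.5-fold in WT (26.3 to 33.2) and 29.2-fold in KO (24.7 to 34.7). The growth was therefore nearly the same in both libraries, and the KO values lay lower along the course.

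**Figure D1:**
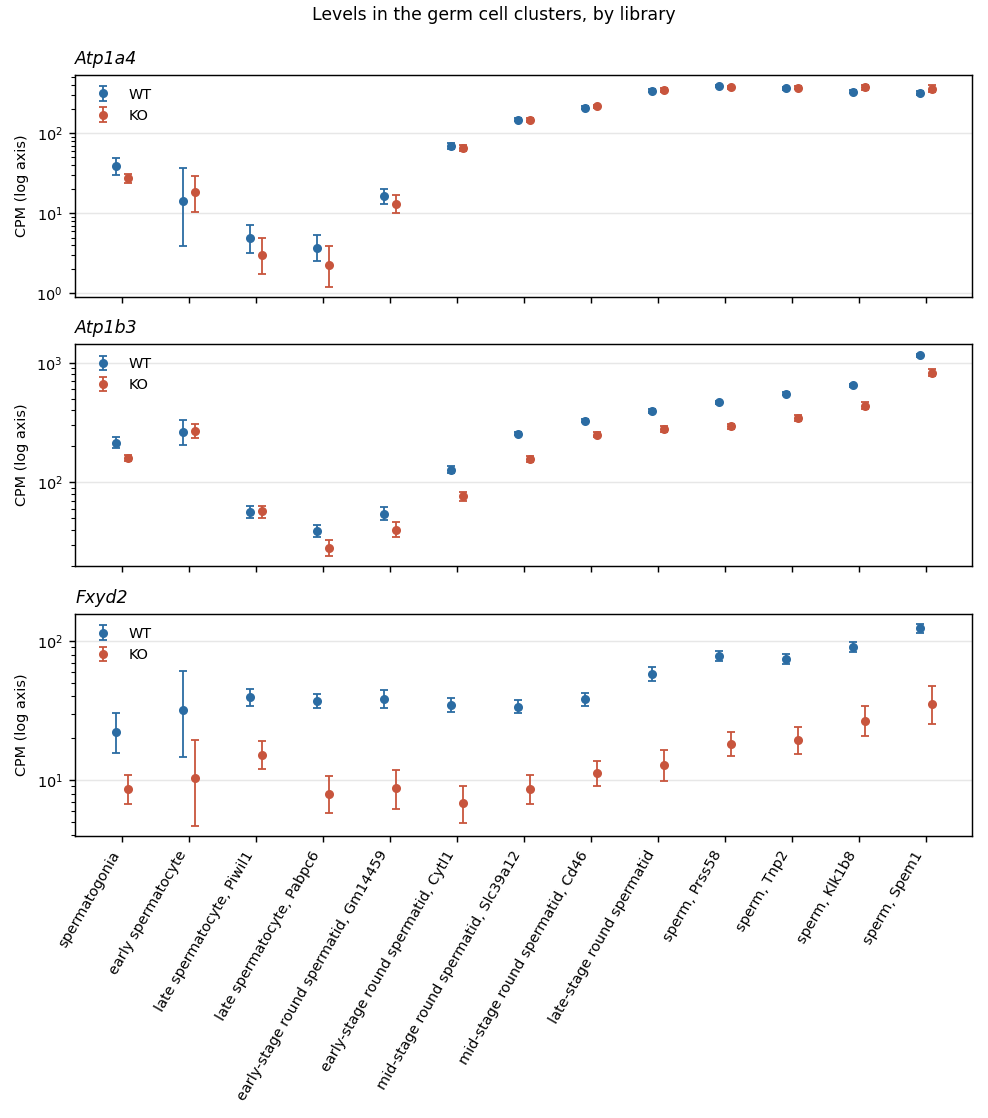
Levels of Atp1a4, Atp1b3 and Fxyd2 in the 13 germ cell clusters in order of stage (x axis), as CPM of summed UMIs on a log axis; points are WT (blue) and KO (red), bars are exact 95% Poisson intervals of the UMI sums. Atp1a4 points of the libraries lie together from the round spermatids on, Atp1b3 points of KO lie below WT in 11 of 13 clusters, and Fxyd2 points of KO lie below WT in 13 of 13.

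Atp1b3 was lower in KO in 11 of 13 germ cell clusters, and in these 11 the interval of the ratio lay below 0. The 2 exceptions were the early spermatocyte-like cluster, at a log2 ratio of 0.03 (-0.35 to 0.43), and the Piwil1 late spermatocyte-like cluster, at 0.01 (-0.22 to 0.25). The lowest was -0.74 (-0.89 to -0.58) in the early-stage round spermatid-like cluster led by Cytl1. No class of germ cells reached a 2-fold difference. By class, WT was 1.6-fold (1.46 to 1.76) above KO in early-stage, 1.43-fold (1.37 to 1.49) in mid-stage and 1.41-fold (1.32 to 1.51) in late-stage round spermatid-like cells. In sperm-like cells it was 1.75-fold above (1.69 to 1.80), and within the 4 clusters of that class 1.39-fold to 1.6-fold. The class value lay above those of all 4 clusters, and the last cluster, with the highest level, held 560 WT cells and 155 KO cells.

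The number of cells with an Atp1b3 UMI differed in the same direction. After each cell was thinned to 5000 UMIs, 93.7% of WT and 81.6% of KO sperm-like cells had one (92.7 to 94.7 and 79.4 to 83.7). Without thinning the shares were 98.7% and 93.2%. Thinning left out 0 WT and 65 KO sperm-like cells.

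Somatic cells also held Atp1b3. Leydig-like cells, the makers of testosterone, had 250 CPM in WT and 239 CPM in KO, a log2 ratio of -0.06 (-0.25 to 0.13). Sperm markers in them stood at 4.91% (WT) and 4.58% (KO) of their level in sperm-like cells, while Atp1b3 stood at 37.3% and 62.4% of its own. In Sertoli-like cells, which nurse the germ cells, Atp1b3 was 391 CPM in WT and 246 CPM in KO. Sperm markers in the Sertoli-like cells were at 54.4% (WT) and 12.8% (KO) of the sperm-like level, and their part in this difference was not tested. In macrophage-like cells Atp1b3 was 378 CPM (123 UMIs) in WT and 207 CPM (166 UMIs) in KO, beside sperm markers at 27.7% and 18.3% of their sperm-like level, whose part was not tested.

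Fxyd2 was counted in all germ cell clusters, was highest in late sperm-like cells, and was lower in KO in every germ cell cluster, the pattern it was selected on. In WT it was 22.2 CPM in spermatogonia-like and 32 CPM in early spermatocyte-like cells, the latter from 9 UMIs. Sperm markers in the spermatogonia-like cells stood at 10.9% (WT) and 6.38% (KO) of the sperm-like level and Fxyd2 at 25% and 39.8% of its own, and the part of sperm RNA in its level there was not tested. The late spermatocyte-like clusters had 39.5 and 37.1 CPM, and the 2 early-stage and 2 mid-stage round spermatid-like clusters had 38.4, 34.6, 33.7 and 38.2 CPM. The intervals of these 6 levels overlapped. Late-stage round spermatid-like cells had 57.9 CPM, and the sperm-like clusters had 78.2, 74.7, 90.3 and 123 CPM in order.

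In KO, Fxyd2 was 8.6 CPM in spermatogonia-like and 10.3 CPM in early spermatocyte-like cells. The late spermatocyte-like clusters had 15.3 and 7.93 CPM, and the early-stage and mid-stage round spermatid-like ones 8.71, 6.78, 8.62 and 11.2 CPM. Late-stage round spermatid-like cells had 12.9 CPM and the sperm-like clusters 18.2, 19.4, 26.8 and 35.4 CPM. From the Pabpc6 late spermatocyte-like cluster to the last sperm-like cluster the level grew 3.32-fold in WT (2.89 to 3.82) and 4.46-fold in KO (2.86 to 6.95). The intervals of this growth overlapped. From the Piwil1 to the Pabpc6 late spermatocyte-like cluster the WT level was 39.5 and then 37.1 CPM, while the KO level went from 15.3 to 7.93 CPM. The log2 KO/WT ratios there were -1.37 (-1.76 to -0.99) and -2.23 (-2.71 to -1.77), with intervals that did not overlap. These cover counting error only, in 1 library per genotype, and a difference in course was not tested.

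In the pooled germ cells Fxyd2 came to 4287 WT and 808 KO UMIs, or 54.6 and 12.2 CPM, and WT was 4.48-fold above KO (4.15 to 4.83). Over the 13 clusters the log2 ratio ranged from -2.35 in the Cytl1 early-stage round spermatid-like cluster to -1.37 in spermatogonia-like cells, with a median of -1.94. All 13 values were at least 2-fold lower in KO. By class, 6 of 7 germ cell classes had the 50 UMIs over both libraries that were set as a minimum, and Fxyd2 was at least 2-fold lower in all 6. Of all genes tested, 1.64% were at least 2-fold lower in KO in the pooled germ cells. By class the share was 5.80% in spermatogonia-like, 1.88% in late spermatocyte-like, 2.31% in early-stage, 1.88% in mid-stage and 1.67% in late-stage round spermatid-like and 2.00% in sperm-like cells. Since the gene was chosen on this contrast, nothing is read from these shares. Among the 5048 genes with the minimum in each of the 5 classes from late spermatocytes on, 11 were at least 2-fold lower in all 5, and Fxyd2 was one of them.

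Fewer germ cells had an Fxyd2 UMI in KO. At 5000 UMIs a cell, the share in sperm-like cells reached 33.4% (31.5 to 35.3) for WT and 9.95% (8.35 to 11.7) for KO, against 51.6% and 17.2% without thinning. In late spermatocyte-like cells it was 17.3% (14.6 to 20.3) and 5.38% (3.78 to 7.41). In Leydig-like cells, where the level was 6.75 CPM (7 UMIs) in WT and 3.80 CPM (39 UMIs) in KO, the share was 2.13% and 1.69%. No germ cell had more than 10 Fxyd2 UMIs in WT or 5 in KO.

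Somatic cells were split in their Fxyd2 values. Sertoli-like cells had 73.8 CPM in WT, from 34 UMIs in 48 cells, and 6.23 CPM in KO, from 29 UMIs in 468 cells. These levels were 83.0% (WT) and 28.8% (KO) of the sperm-like level of Fxyd2. The sperm markers beside them, at 54.4% and 12.8% of their sperm-like level, were also lower in KO, and their part was not tested. Macrophage-like cells had 67.6 CPM in WT (22 UMIs, 42.4 to 102) and 53.6 CPM in KO (43 UMIs, 38.8 to 72.3), a log2 ratio of -0.33 (-1.11 to 0.48). In KO this was 248% of the level in sperm-like cells, while sperm markers in the macrophage-like cells were at 18.3% of theirs. Fxyd2 was in 42.3% of the 26 WT and 32.1% of the 81 KO macrophage-like cells, with at most 5 UMIs in a cell. Endothelial-like cells had 0 UMIs in both libraries, which in KO (24 cells) allows up to 19 CPM.

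Fxyd6, the coding gene next to Fxyd2, encodes another FXYD protein and was most abundant in somatic cells. In the pooled germ cells it came to 203 WT and 157 KO UMIs, a log2 ratio of -0.13 (-0.44 to 0.18). In mid-stage round spermatid-like cells the ratio was -0.06 (-0.73 to 0.61), while Fxyd2 in the same cells was at -1.86 (-2.11 to -1.61). In sperm-like cells Fxyd6 was 4.21 CPM in WT (107 UMIs) and 1.55 CPM in KO (21 UMIs), a ratio of -1.44 (-2.19 to -0.76), beside -2.04 (-2.22 to -1.87) for Fxyd2. In late spermatocyte-like cells Fxyd6 came to 4 WT and 29 KO UMIs, a ratio of 3.14 (1.63 to 5.11). Beside it, Leydig markers went from 0.0162% to 0.293% and Sertoli markers from 0.089% to 0.354% of their level in their own cells, and their part was not tested. The neighbours were both lower in KO sperm-like cells. Fxyd2 was chosen for its drop in KO germ cells, so nothing is read from how its ratios differ from those of Fxyd6.

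Atp1b1 was highest in Sertoli-like cells and low in germ cells. Sertoli-like cells had 73.8 CPM in WT (34 UMIs, 51.1 to 103) and 163 CPM in KO (759 UMIs, 152 to 175). KO was 2.21-fold above WT (1.57 to 3.21). In the same cells 42.3% of all genes tested were at least 2-fold higher in KO and 12.8% at least 2-fold lower, with a median log2 ratio of 0.83, so a value of this size was common among all genes in these cells. The 12 Sertoli markers summed to 10145 CPM in WT and 22940 CPM in KO. Per 1000 UMIs of these markers Atp1b1 had 7.28 UMIs in WT (5.04 to 10.2) and 7.11 in KO (6.61 to 7.63). These intervals overlapped, with the WT one wide at 34 UMIs. The part of the markers' difference in that of Atp1b1 was not tested.

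Outside Sertoli-like and endothelial-like cells Atp1b1 was scarce. Endothelial-like cells had 88.6 CPM in KO (14 UMIs), and the 1 WT cell had 0 UMIs, which allows up to 396 CPM. Spermatogonia-like cells had 4.10 CPM in WT (7 UMIs) and 8.0 CPM in KO (67 UMIs). Leydig-like cells had 3.86 CPM and 1.75 CPM, from 4 and 18 UMIs. Mid-stage round spermatid-like cells had 3.59 CPM in WT (71 UMIs) and 1.64 CPM in KO (27 UMIs), a log2 ratio of -1.13 (-1.83 to -0.47). Nme7, which overlaps Atp1b1 on the other strand, was at 42.8 CPM in WT and 28.2 CPM in KO in these cells, a ratio of -0.60 (-0.77 to -0.44), and 38.9 CPM in KO Sertoli-like cells. Reads of Nme7 counted for Atp1b1, or the reverse, were not tested for.

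Among germ cells, Atp1b2 was present before meiosis and near 0 from late spermatocytes on. Spermatogonia-like cells had 19.3 CPM in WT (33 UMIs, 13.3 to 27.1) and 19.1 CPM in KO (160 UMIs, 16.3 to 22.3), a log2 ratio of -0.01 (-0.56 to 0.57). Early spermatocyte-like cells had 17.8 CPM (5 UMIs) and 33.1 CPM (29 UMIs), with intervals that overlapped. From late spermatocytes on, all classes of germ cells were at or under 0.458 CPM in both libraries. Leydig-like cells had 9.64 CPM (10 UMIs) in WT and 11.6 CPM (119 UMIs) in KO. This was 88.8% (WT) and 10.2% (KO) of the Sertoli-like level, beside Sertoli markers at 23.1% and 12.1% of theirs. The WT share rests on 10 UMIs in Leydig-like and 5 UMIs in Sertoli-like cells. The part of Sertoli RNA in these levels was not tested.

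In the pooled germ cells Atp1b2 had a log2 ratio of 2.45 (1.98 to 2.95), from 45 UMIs in WT and 207 in KO. With equal weight for each cluster it was 0.54. Spermatogonia-like cells, where the levels were alike, gave 2.18% (WT) and 12.6% (KO) of the germ cell UMIs. The pooled difference was not seen within the stage that held most of the gene's UMIs. In the pooled germ cells 22.7% of all genes tested were at least 2-fold higher in KO, 2 of the 6 genes (Atp1b2 and Fxyd1) among them. An upward call was thus common there, and nothing is read from these 2 calls. Atp1b2 stood above 95.6% and Fxyd1 above 98.4% of the genes tested, on pooled ratios that carry the stage makeup of each library.

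In Sertoli-like cells Atp1b2 was 10.9 CPM in WT (5 UMIs, 3.53 to 25.3) and 113 CPM in KO (528 UMIs, 104 to 124), and KO was 10.4-fold above WT (4.45 to 32.3). Per 1000 Sertoli marker UMIs it had 1.07 UMIs in WT (0.348 to 2.5) and 4.95 in KO (4.53 to 5.39). These intervals did not overlap, unlike those of Atp1b1. At 5000 UMIs a cell, 8.33% of the 48 WT cells (2.32 to 20) and 41.0% of the 459 KO cells of that depth (36.4 to 45.6) had an Atp1b2 UMI.

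Fxyd1 was the gene of the 6 most restricted to one somatic class: 96.2% of its UMIs in WT and 96.8% in KO were in Leydig-like cells. There it was 2578 CPM in WT (2674 UMIs) and 2566 CPM in KO (26343 UMIs), a log2 ratio of -0.01 (-0.06 to 0.05). At 5000 UMIs a cell, 96.8% of WT and 98.9% of KO Leydig-like cells had a UMI. The level in these cells was alike in both libraries, while Leydig-like cells were 1.63% of WT and 16.7% of KO cells.

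In germ cells Fxyd1 was low, and Leydig markers moved with it. It was 1.19 CPM in WT (93 UMIs) and 9.25 CPM in KO (612 UMIs), a log2 ratio of 2.96 (2.65 to 3.29). Summed Leydig markers in germ cells stood at 0.0347% (WT) and 0.255% (KO) of the Leydig-like level, and Fxyd1 at 0.046% and 0.36% of its own. The part of Leydig RNA in the difference was not tested. Per 1000 Leydig marker UMIs, Fxyd1 had 67.6 UMIs in WT germ cells (54.6 to 82.8) and 51.1 in WT Leydig-like cells (49.1 to 53.0), against 49 (45.2 to 53.0) and 34.6 (34.2 to 35.1) in KO. In both libraries it stood above the markers' own ratio. In KO, 17 germ cells had 5 or more Fxyd1 UMIs and held 35.1% of the germ cell UMIs of the gene, and 9 of the 17 were called doublets. In WT there was 1 such cell. Without called doublets the ratio was 2.51. Sertoli-like cells had 4.34 CPM in WT (2 UMIs) and 40.6 CPM in KO (189 UMIs), a log2 ratio of 3.22. It was 0.87 when cells with over 1000 genes were clustered anew. The Sertoli-like class then held 52 WT and 487 KO cells, in place of 48 and 468. Macrophage-like cells had 33.8 CPM (11 UMIs) and 82.3 CPM (66 UMIs), in a class where 12.4% of genes were at least 2-fold higher in KO. Leydig markers were also higher in KO in both classes, from 0.688% to 1.23% of the Leydig-like level in Sertoli-like cells and from 0.0365% to 0.829% in macrophage-like cells, and their part was not tested.

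**Figure D2:**
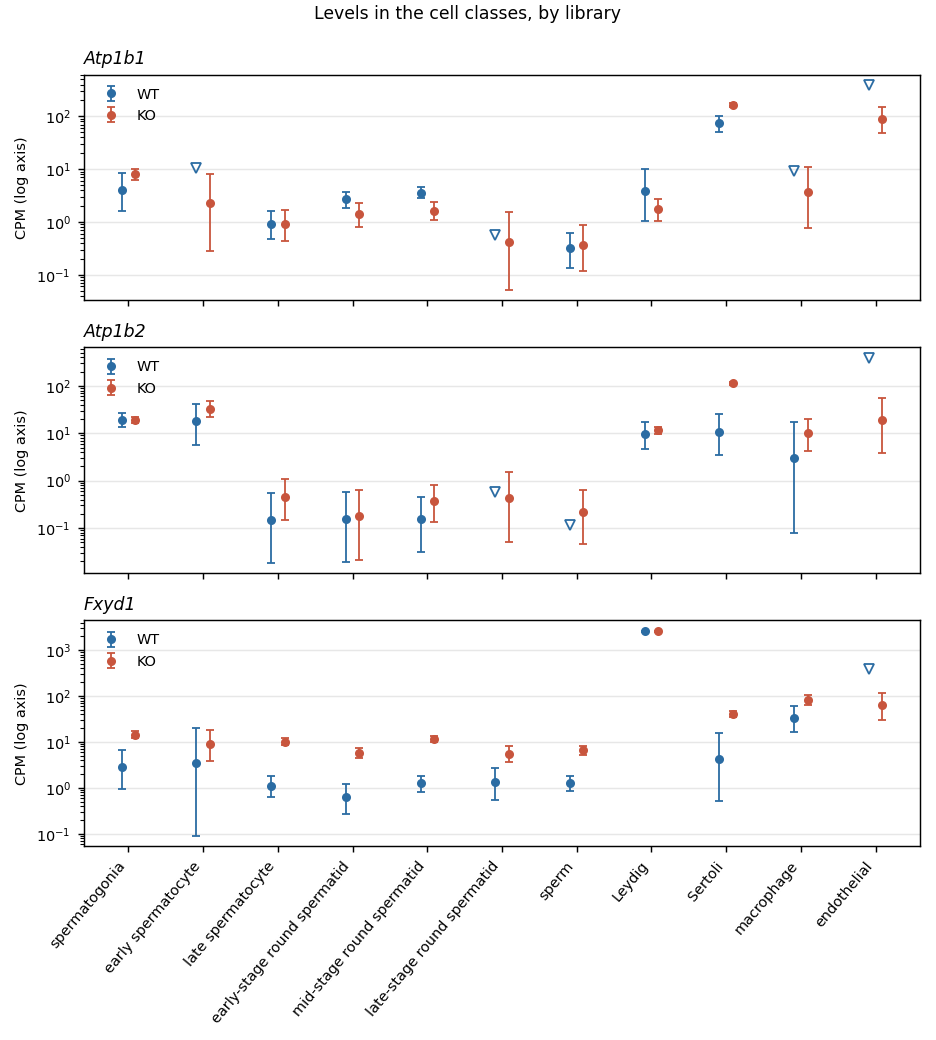
Levels of Atp1b1, Atp1b2 and Fxyd1 in the 11 cell classes (x axis), as CPM of summed UMIs on a log axis, for WT (blue) and KO (red) with exact 95% Poisson intervals; open triangles mark a sum of 0 UMIs at the CPM of 3 UMIs. Atp1b1 is highest in Sertoli-like cells, Atp1b2 in germ cells falls to under 1 CPM from late spermatocytes on, and Fxyd1 of both libraries meets in Leydig-like cells at 2578 and 2566 CPM.

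Across the classes, the 6 genes differed in how their KO/WT ratios stood. In Leydig-like cells 4 of the 6 had 50 or more UMIs, and 0 of the 4 were 2-fold different, where 6.89% of all genes were at least 2-fold higher and 11.7% at least 2-fold lower. In Sertoli-like cells 3 of 6 were at least 2-fold higher (Atp1b1, Atp1b2 and Fxyd1) and 2 at least 2-fold lower (Atp1a4 and Fxyd2), beside 42.3% higher and 12.8% lower over all genes. Atp1a4 there was 163 CPM in WT (75 UMIs) and 56.5 CPM in KO (263 UMIs), at 45.9% and 15.2% of its sperm-like level, beside the sperm markers at 54.4% and 12.8% of theirs. The part of sperm RNA in the lower values of Atp1a4 and Fxyd2 was not tested.

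**Figure D3:**
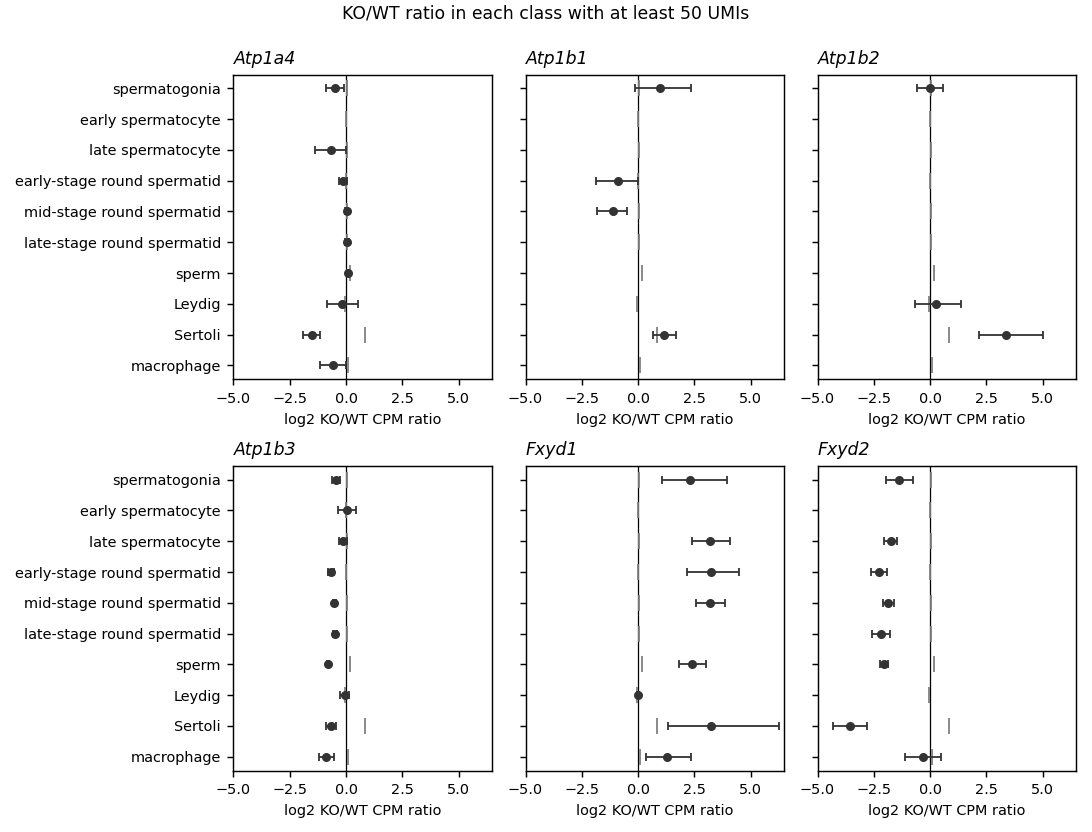
The log2 KO/WT ratio of CPM (x axis) of each of the 6 genes in the classes where it had at least 50 UMIs over both libraries, with exact conditional 95% intervals; grey ticks mark the median ratio of all genes tested in that class. Fxyd2 lies left of -1 in all 6 germ cell classes shown and at -0.33 in macrophage-like cells, Atp1a4 lies near 0 in round spermatid-like and sperm-like cells, and Atp1b3 lies between 0 and -1 in most.

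**Figure D4:**
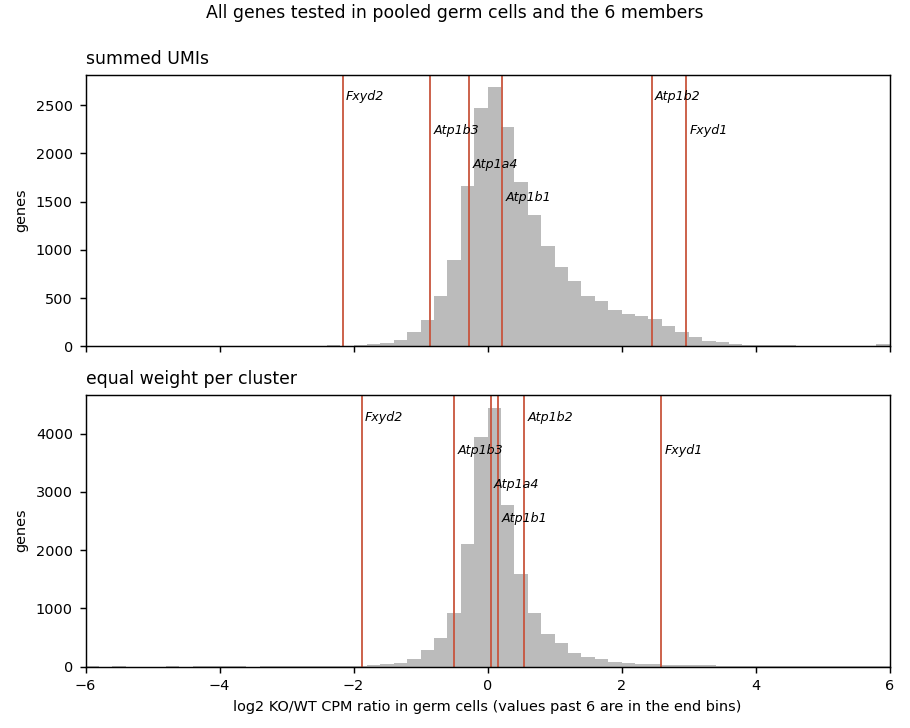
Number of genes (y axis) by log2 KO/WT ratio in pooled germ cells (x axis, bins of 0.2), for the 19643 genes with at least 50 UMIs, from summed UMIs (top) and with equal weight for each germ cell cluster (bottom); red lines mark the 6 genes. Fxyd2 stays in the left tail in both (-2.16 and -1.88), while Atp1b2 moves from 2.45 to 0.54.

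**Figure D5:**
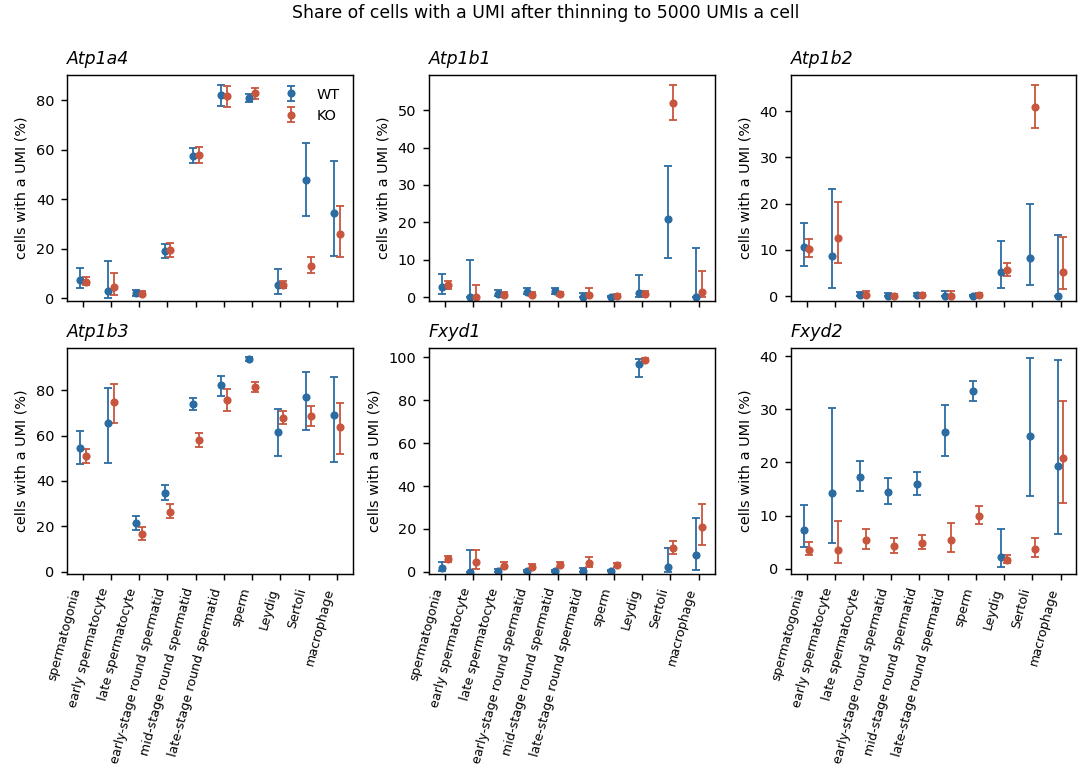
Percent of cells with at least 1 UMI of each gene (y axis) after every cell was thinned to 5000 UMIs, by class (x axis) and library, with exact 95% Clopper-Pearson intervals. For Fxyd2 the KO points lie under 10% in all germ cell classes, and for Fxyd1 both libraries pass 96% in Leydig-like cells only.

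The genes with the most similar pattern over clusters were sought by the Pearson correlation of log2(CPM + 1) over 29 points, the clusters with at least 50 cells in a library (13 of WT and 16 of KO), among 8377 genes that reached 50 CPM in at least one. The points share libraries and the stage order, so the values only describe likeness. Atp1a4 was closest to Ccdc54 (0.99), Pkib (0.99) and Gm34263 (0.99). Atp1b3 was closest to Atl3 (0.95), Eef1d (0.94) and Spryd3 (0.94). Fxyd1 was closest to the Leydig genes Hsd3b6 (0.99) and Akr1cl (0.99) and to Tmem176a (0.98). Atp1b1 was closest to Sh3gl2 (0.90), Zfp976 (0.89) and Slc26a7 (0.89), and Atp1b2 to Igsf8 (0.98), Mfge8 (0.98) and Hif1a (0.97). The 48 WT Sertoli-like cells fell under the minimum of 50, so the Sertoli-like point was from KO only.

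Fxyd2 had no close match. Its best were Gm10638 (0.76), Mea1 (0.73) and Gm9970 (0.73). Gm10638 was also lower in KO, with 123 CPM in WT and 23 CPM in KO pooled germ cells, and in all 5 classes from late spermatocytes on it was at least 2-fold lower. Among the 6 genes themselves the highest correlation was between Atp1a4 and Atp1b3 (0.84), then between Atp1b1 and Atp1b2 (0.74).

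The other genes of the pump family were mostly scarce in germ cells. Of 15 listed genes of the pump, the related H,K-ATPase, the FXYD family and the Nkain proteins that bind the beta subunit, 14 were in the tables and 8 had 50 or more UMIs in the pooled germ cells. There 2 of the 8 were at least 2-fold higher in KO and 0 lower, and their median log2 ratio was 0.31, beside 0.28 for all genes. The 2 were Nkain4 and Nkain3, at 1.38 (0.89 to 1.87) and 1.08 (0.20 to 2.00). Both were under 2 CPM, and Nkain4 was 73.3 CPM in WT and 117 CPM in KO Leydig-like cells. Other catalytic alpha genes than Atp1a4 are not described here.

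Several genes of the list had their highest level in somatic cells. Fxyd5 (dysadherin) was 576 CPM in KO endothelial-like cells, from 91 UMIs. Fxyd6 was 89 CPM in WT (41 UMIs) and 266 CPM in KO (1238 UMIs) Sertoli-like cells, and 118 and 116 CPM in Leydig-like cells. Per 1000 Sertoli marker UMIs, Fxyd6 had 8.78 UMIs in WT (6.30 to 11.9) and 11.6 in KO (11.0 to 12.3), and these intervals overlapped.

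In germ cells, Fxyd5 was measured from 1249 WT and 1124 KO UMIs. Its ratio was 0.94 (0.72 to 1.16) in sperm-like cells, at 13.2 CPM in WT and 25.4 CPM in KO, and -0.81 (-1.09 to -0.53) in late spermatocyte-like cells, at 25.1 and 14.4 CPM. The median ratio of all genes tested in sperm-like cells was 0.18. Fxyd1 was at 2.40 (1.80 to 3.03) there, from 32 WT and 90 KO UMIs. Beside it, Leydig markers went from 0.0536% to 0.215% of their Leydig-like level, and their part was not tested. Fxyd5 and Fxyd1 were thus higher in KO sperm-like cells, and Fxyd6 and Fxyd2 lower, of which Fxyd2 was chosen for its drop.

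Sodium carriers and exchangers use the sodium gradient that the pump makes. The sodium/proton exchanger Slc9b1 was 514 CPM in WT and 553 CPM in KO late spermatocyte-like cells. Slc9c1, the sperm-specific exchanger, was 136 and 117 CPM in the same cells, and both were under 10 CPM in sperm-like cells, where Atp1a4 and Atp1b3 reached their germ cell peaks. Slc4a7, a sodium bicarbonate carrier, was 32.6 CPM in WT (15 UMIs) and 97.6 CPM in KO (454 UMIs) Sertoli-like cells. Of 20 listed genes, 17 had 50 or more UMIs in pooled germ cells, and 7 were at least 2-fold higher and 0 lower, with a median of 0.69, beside 22.7% higher, 1.64% lower and a median of 0.28 over all genes. Within spermatogonia-like, late spermatocyte-like, mid-stage round spermatid-like and sperm-like cells, 0 or 1 gene of the list was 2-fold higher, and the medians ran from -0.01 to 0.18. Among the 7 were Slc8b1 (2.11), Slc20a2 (1.48), Slc9a7 (1.42), Slc20a1 (1.37), Slc4a4 (1.35) and Slc12a2 (1.22).

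Of 12 potassium channels and carriers, 9 had the minimum and 1, Slc12a4, was at least 2-fold higher in KO (1.59, 15 and 38 UMIs), with 0 lower and a median of 0.15. The sperm channel Kcnu1 and its partner Lrrc52 were highest in mid-stage round spermatid-like cells, at 71.7 and 125 CPM in WT and 75.5 and 108 CPM in KO. Slc12a7 was 14.6 and 16.9 CPM in sperm-like cells. Of 14 other ATPases of the sodium pump's P-type family, 11 had the minimum and 5 were at least 2-fold higher in KO. With 0 lower, their median was 0.67, against the same 22.7%, 1.64% and 0.28 over all genes. The 5 were the copper pump Atp7a (3.38), the calcium pumps Atp2b1 (2.44) and Atp2a2 (1.01), Atp13a1 (1.22) and Atp13a3 (1.07). Atp2b1 was 98.3 and 96.2 CPM in WT and KO spermatogonia-like cells and under 2 CPM in late spermatocyte-like to sperm-like cells. Its pooled value, like that of Atp1b2, stood beside a larger share of spermatogonia-like cells in KO, whose part was not tested. In Sertoli-like cells Atp2b1 was 34.7 CPM in WT and 185 CPM in KO, and Atp2b4 was 21.7 and 79.5 CPM. Atp2a2 was 53.4 and 78.8 CPM in early spermatocyte-like cells. No gene of the 4 lists was at least 2-fold lower in KO in the pooled germ cells, where 1.64% of all genes were.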

How the data were processed

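The members and gene lists were chosen with earlier results of these data known. Testis cells of 1 WT and 1 KO library were sequenced with the GEXSCOPE single-cell kit. The deposited values are UMI counts per gene and cell barcode, not normalized. The submitters' processing notes name featureCounts 1.6.2, STAR 2.5.3a, fastp 1 and FastQC 0.11.7, with no roles. The study's methods name GRCh38 although the symbols are mouse. Which build gave the counts could not be settled from the sources used here.

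Cells with over 500 genes were clustered in Seurat 5.3.0 (R 4.3.3) on anchors, with 2000 variable features, 20 anchor dimensions, 30 principal components and a resolution of 0.3. Clusters took the name of the marker list with the highest mean log2 fold, given at least 3 of its markers detected. Some germ cell markers come from the study's own table of these libraries, so they are not independent of them. Scrublet (scanpy 1.11.5, expected rate 0.06) marked doublets, which were kept: 4.22% of WT and 4.96% of KO cells. UMIs were summed per class and library and divided by their total (numpy 2.4.6, pandas 2.3.3). Intervals were exact Poisson, conditional or Clopper-Pearson ones (scipy 1.17.1). A gene counted as different at 2-fold or more with at least 50 UMIs over both libraries. A sum of 0 was taken to allow 3 counts. The calculations were tested on simulated data. Named genes were the 6, those of each list at 2-fold or more in pooled germ cells, the 3 of each list with the highest CPM in any class, and the 3 most alike in pattern to each of the 6. Nme7 and the neighbour values of Fxyd6 were added after their values were seen. Some genes that this rule names are not reported here. Alternatives were resolution 0.8, the 6 genes left out of the features, no integration, doublets removed, over 1000 genes per cell, totals without mitochondrial and ribosomal protein genes, the mean over cells, each germ cell cluster weighted equally, thinning to 3000 UMIs, a 1.5-fold difference and a minimum of 200 UMIs.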

Additional observations from a re-analysis of the deposited data

Results flagged for a closer look

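The KO/WT ratio of Atp1b1 had opposite signs in 2 classes. On the log2 scale it was 1.14 (0.65 to 1.68) in Sertoli-like cells, from 34 WT and 759 KO UMIs, and -1.13 (-1.83 to -0.47) in mid-stage round spermatid-like cells, from 71 and 27 UMIs. The difference between the classes was not tested, since each genotype had 1 library. Nme7, which overlaps Atp1b1 on the other strand, had the same signs, at 1.58 (0.43 to 3.04) and -0.60 (-0.77 to -0.44). Reads shared by these genes were not tested for.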

How the results depend on the processing

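With equal weight per germ cell cluster the pooled log2 ratio became 0.046 for Atp1a4 (a change of sign from -0.28), 0.54 for Atp1b2, -0.50 for Atp1b3, 2.59 for Fxyd1 and -1.88 for Fxyd2. As a mean over cells it was -0.40 for Atp1a4, 0.76 for Atp1b1 and -0.95 for Atp1b3. Totals without mitochondrial and ribosomal protein genes gave -0.83 for Atp1b3, and removing called doublets gave 2.51 for Fxyd1. The share of genes past the fold was 24.3%, 41.3% at 1.5-fold and 8.46% with equal weight. The cause of these shifts was not tested. Under the alternatives 38 pooled values stayed within their counting interval and 10 did not, and of the class values 279 did and 21 did not. Of the levels 65 did and 19 did not, and thinning to 3000 in place of 5000 UMIs moved 29 shares of cells past their interval and left 19 within it. In the classes, Fxyd1 in Sertoli-like cells went from 3.22 to 0.87 with over 1000 genes per cell, and in mid-stage round spermatid-like cells from 3.18 to 1.66, or 2.10 without doublets. Atp1a4 in macrophage-like cells changed sign, from -0.58 to 0.47, when the 6 genes were left out of the features. All 56 class values of Fxyd2 stayed below 0, which its selection does not make independent. With 1 library per genotype, depth limits only the counting error, and differences between animals cannot be told apart from genotype. No paired analysis was possible because no result comes from a test.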
